A study of Mus musculus with 30 samples.

Results

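The comparison described here sets naive CD8+ T cells after 96 h of stimulation against such cells after 18 h, cultured without TMem cells, which is the late against the early response to antibodies to CD3 and CD28 with IL-2. Its members were the 3 arrays titled TN alone at 96 h and the 3 titled TN alone at 18 h, 6 of the 30 arrays of the series, and all 19106 genes on autosomes that 1 probe set or more of the array named. The cells were TN, naive CD8+ T cells of Ly5.1 Pmel-1 Tg mice on the C57BL/6 strain, labelled female and 6 to 12 weeks old, sorted from spleen by flow cytometry. Pmel-1 is a transgenic T cell receptor that recognises a peptide of the melanocyte protein gp100, and the antibodies used here do not need that peptide. Unstimulated TN cells (0 h, 3 arrays) gave the level before stimulation. Replicate 1 of 0 h stood apart from replicates 2 and 3 in some sets of genes. The mean of respiratory chain genes was 10.9 in replicate 1 and 10.44 and 10.5 in the others. For replication-dependent histones it was 9.20 against 8.38 and 8.58. The cause was not tested. The change was also set against that in 2 other cultures stimulated with the same antibodies and IL-2, each with 3 arrays at 96 h and 3 at 18 h. These were TN cells kept with TMem cells (TN mix) and TMem cells alone, where TMem are Ly5.2 Pmel-1 Tg CD8+ T cells differentiated in vitro. All groups share the transgene, the strain, the spleen as the labelled tissue, the labelled sex and age, and a flow cytometric sort. The labels call the 3 arrays of each group biological repeats and do not say whether mice were pooled.

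A naive T cell that meets a signal through its receptor and CD28 switches on a wave of transcription factors, grows, makes IL-2 and its high-affinity receptor, and then divides repeatedly. Over the following days it acquires the granzymes, cytokines and surface receptors of an effector cell. Proliferating cells carry mRNAs for DNA synthesis and mitosis that resting cells lack, and these are switched on by E2F factors at the entry into S phase and by other regulators before mitosis.

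The values are log2 probe-set values of a whole-transcript array, so a difference of 1 is a 2-fold difference in signal. Levels of different genes cannot be set against each other, since each probe set has its own brightness. Cd8a and Cd4 were looked at first, and they cannot tell TN from TMem cells, since TMem cells are CD8+ too. Of 13 genes of CD8 T cell identity and the T cell receptor complex, Cd8a among them, 2 were higher at 96 h and 6 lower. The shares over all genes were 11.4% and 13.2%. Cd8a, the coreceptor of these cells, measured 12.28, 12.31 and 12.28 at 96 h and 12.26, 12.24 and 12.23 at 18 h (difference 0.04, SE 0.13, limma adjusted p = 0.89), and Cd4 was 6.36 at 96 h and 6.32 at 18 h. The Y chromosome, which is outside the compared genes, did not follow the labels. Eif2s3y, a Y-linked gene, measured 4.13 to 4.20 at 96 h and 8.09 to 8.25 at 18 h, against a mean of 4.19 in unstimulated TN cells. Uty and Kdm5d, also Y-linked, averaged 4.36 and 5.39 at 96 h and 6.88 and 7.61 at 18 h. Xist, the RNA of the inactive X chromosome, was present at both times, at 12.11 at 96 h and 11.27 at 18 h. All arrays of TMem cells alone had Eif2s3y at 8.82 or more and Xist at 5.77 or less. TN mix at 18 h, from the culture with TMem cells, averaged 8.36 for Eif2s3y, 6.72 for Uty, 7.5 for Kdm5d and 10.97 for Xist. The 18 h arrays of TN cells alone thus carried signal of both kinds, at levels near those of TN mix, although every array is labelled female. The cause was not tested. The source of the cells and the time of stimulation cannot be told apart in the results that follow. None of the 3 arrays at 18 h lacked the signal, so no 18 h value could be had without it.

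Of the 19106 genes, 4708 differed between 96 h and 18 h at an adjusted p under 0.05 (limma, 24.6% of those tested), 2183 higher at 96 h (11.4%) and 2525 lower (13.2%). When each array was centred on its median, 1740 were higher and 3161 lower, so that the share of higher calls was 35.5% in place of 46.4%. The changes upward were larger than those downward: 532 genes were called and at least 1 higher and 210 at least 1 lower, 84 were at least 3 higher and 5 at least 3 lower, and 24 were at least 4 higher and 0 at least 4 lower. The median difference was 0.57 among the genes called higher and -0.48 among those called lower, and -0.01 over all genes. The 3 values of 1 time did not overlap those of the other for 8072 genes (42.2%). In cell populations of this kind, fewer cells of a type and less RNA per cell cannot be told apart.

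**Figure D1:**
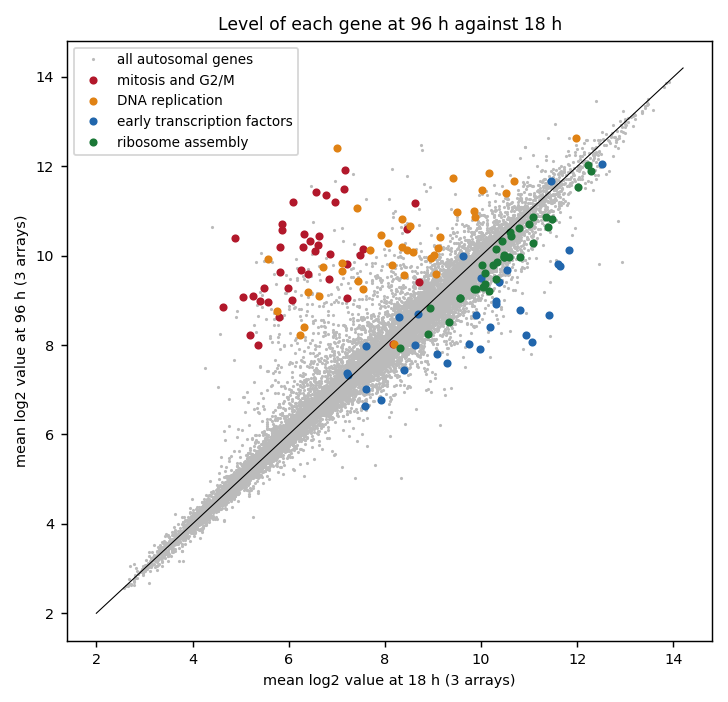
Mean log2 probe-set value of every autosomal gene at 96 h (vertical axis) against 18 h (horizontal axis), 3 arrays each, with the members of 4 gene lists in colour and the line of equal levels. All but 1 mitosis and 1 replication gene lie above the line, the early transcription factors mostly below it, and the ribosome assembly genes just below it.

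The largest rises at 96 h were those of genes of cell division. Of the 20 largest rises, 15 belonged to the lists of mitosis, DNA replication or histones, and of the 84 genes that rose by at least 3, 37 were among the 89 genes of these lists. Among 40 mitosis and G2/M genes 39 were higher and 0 lower, with a median difference of 3.61 against -0.01 over all genes. Ccnb2, a cyclin that drives the entry into mitosis with Cdk1, measured 11.89, 11.97 and 11.91 at 96 h and 7.13, 7.32 and 7.07 at 18 h (difference 4.75, SE 0.08, adjusted p = 3.3e-26). All 3 late arrays lay far above all 3 early arrays. Bub1, a kinase of the checkpoint that watches the attachment of chromosomes to the spindle, measured 10.37, 10.43 and 10.39 at 96 h and 4.80, 4.75 and 5.11 at 18 h (difference 5.51, SE 0.13, adjusted p = 1.1e-22). The early values are near background, that is, below the lower quartile of their arrays. At 18 h 29 of the 84 genes that rose by at least 3, and 9 of the 40 mitosis genes, were near background. The sizes of those rises are uncertain. Mki67, whose protein Ki-67 is the usual stain for dividing cells, measured 11.17, 11.27 and 11.20 at 96 h and 6.20, 6.05 and 6.01 at 18 h (difference 5.13, SE 0.27, adjusted p = 4.4e-15). The spindle motor Kif11 rose by 4.87, the cyclin Ccna2 by 4.85 and Nusap1, which bundles spindle microtubules, by 4.71. The kinases Plk1 and Aurkb rose by 4.25 and 4.33 and the spindle factor Tpx2 by 4.38. The groups did not overlap for any of them, which was also so for 42.2% of all genes. Top2a, which untangles DNA, rose by 4.58 on the brighter of its 2 probe sets and differed by 0.84 on the dimmer, which was near background at both times.

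The genes of DNA replication changed in the same direction. Of 38 genes of DNA replication and S phase, 37 were higher at 96 h and 0 lower, with a median difference of 1.78. Rrm2, the subunit of ribonucleotide reductase that limits the supply of deoxynucleotides, measured 12.39, 12.40 and 12.42 at 96 h and 6.98, 6.83 and 7.23 at 18 h (difference 5.39, SE 0.10, adjusted p = 1.7e-24). No replicate of 1 time came near the other. Tyms, which makes thymidylate, measured 10.97, 11.04 and 11.21 at 96 h and 7.5, 7.39 and 7.36 at 18 h (difference 3.66, SE 0.14, adjusted p = 7e-18). Cdc6, which loads the replicative helicase onto DNA, measured 9.15, 9.26 and 9.13 at 96 h and 6.36, 6.37 and 6.47 at 18 h (difference 2.78, SE 0.09, adjusted p = 2.3e-19). E2f8, a repressor of the E2F family that was near background at 18 h, rose by 4.35, Mcm10 by 3.05 and the cyclin Ccne2 by 3.00. Mcm2, a subunit of the helicase, moved less, at 11.37, 11.45 and 11.38 at 96 h against 10.50, 10.54 and 10.48 at 18 h (difference 0.89, SE 0.07, adjusted p = 4.9e-11). At 18 h Mcm2 already stood above its mean of 9.21 in unstimulated cells, and 17 of the 38 genes of the list were higher and 7 lower at 18 h than at 0 h. For the mitosis list these counts were 1 higher and 13 lower of 40, against 17.3% higher and 16.7% lower over all genes.

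Of 11 replication-dependent histone genes, which are transcribed in S phase, 10 were higher at 96 h and 0 lower (median difference 2.30). H2ac4 had the largest rise among the named genes, at 10.60, 10.74 and 10.59 at 96 h and 4.92, 4.05 and 4.21 at 18 h (difference 6.25, SE 0.30, adjusted p = 8.7e-16). Its early values lie near background. Histone genes are near-identical copies of each other, so probe sets of 1 may read others, and the single genes are uncertain. Among regulators of the G1 phase, 13 of 26 were higher and 6 lower, or 9 and 7 after centring each array on its median. The shares over all genes were 11.4% higher and 13.2% lower. E2f3, an activator of the E2F family, rose by 2.20 and Cdk2, a kinase of the entry into S phase, by 1.58. The antiproliferative genes Btg1, Btg2 and Tob1 fell by 0.78, 1.14 and 0.57, and the CDK inhibitor Cdkn1b by 0.37, while the CDK inhibitor Cdkn2c rose by 2.08. E2f3 has a dimmer probe set with a difference of 1.10, and Cdkn1b one with -0.76.

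Promoters of these lists are shown because their members moved together, and the 3 printed were chosen, after the search, for the motifs they hold. The windows run from 250 bases before to 50 after the start of the gene and come from RefSeq (build GRCm38.p6), 5′ to 3′ on the strand of the gene. They lie at chr9:70421505-70421804 for Ccnb2 and chr7:135716330-135716629 for Mki67, both on the minus strand, and at chr11:98907901-98908200 for Cdc6, on the plus strand. Capitals in the first 2 mark the cell cycle homology region (CHR, TTTGAA) and the CCAAT box, and in Cdc6 an E2F form (TTTCCCGC), each on either strand.
Ccnb2: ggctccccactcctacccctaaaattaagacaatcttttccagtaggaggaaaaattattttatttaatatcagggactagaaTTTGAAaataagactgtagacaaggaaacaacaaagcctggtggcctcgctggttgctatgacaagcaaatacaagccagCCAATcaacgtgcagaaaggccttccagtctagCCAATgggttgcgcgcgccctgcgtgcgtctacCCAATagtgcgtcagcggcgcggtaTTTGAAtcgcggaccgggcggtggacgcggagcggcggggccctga
Mki67: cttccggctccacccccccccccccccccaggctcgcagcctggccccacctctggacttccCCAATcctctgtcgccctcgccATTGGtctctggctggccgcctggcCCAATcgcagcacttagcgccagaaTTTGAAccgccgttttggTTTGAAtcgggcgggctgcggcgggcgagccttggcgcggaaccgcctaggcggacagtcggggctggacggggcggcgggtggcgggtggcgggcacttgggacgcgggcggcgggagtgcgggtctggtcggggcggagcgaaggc
Cdc6: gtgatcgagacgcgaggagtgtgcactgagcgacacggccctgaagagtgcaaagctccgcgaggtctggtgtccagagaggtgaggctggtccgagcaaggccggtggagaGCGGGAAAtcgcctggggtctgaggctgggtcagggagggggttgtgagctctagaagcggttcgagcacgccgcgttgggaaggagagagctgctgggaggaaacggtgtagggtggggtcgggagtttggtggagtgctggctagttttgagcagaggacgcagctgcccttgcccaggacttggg
Ccnb2 and Mki67 each hold 2 matches to TTTGAA and 3 to CCAAT. Of the 34 mitosis genes with a window, 25 hold TTTGAA (73.5%), against 16.1% of the 31 replication genes with a window and 17.2% of 14959 genes with a window. CCAAT stands in 76.5% of the mitosis genes, 58.1% of the replication genes and 41.4% of all. Any of 3 E2F forms (TTTCCCGC, TTTGGCGC or TTTCGCGC, each counted on both strands) stands in 12 of 31 replication genes (38.7%), in 1 of 34 mitosis genes (2.94%) and in 2.96% of all. Cdc6 is the replication gene with the largest rise among those 12, while Rrm2 and E2f8, with larger rises, hold none of the 3 forms in their windows. The CRE (TGACGTCA), the palindromic NF-kB site and the EGR form (GCGTGGGCG) stand in 1, 1 and 0 of 23 windows of the early transcription factors described next, against 2.77%, 0.0602% and 1.06% of all. The E-box CACGTG stands in 7 of 30 windows of ribosome assembly genes (23.3%), against 9.49% of all. It stands in 16.1% of windows of replication genes, 13% of early transcription factors and 5.88% of mitosis genes. These are matches of letters, with no test.

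**Figure D2:**
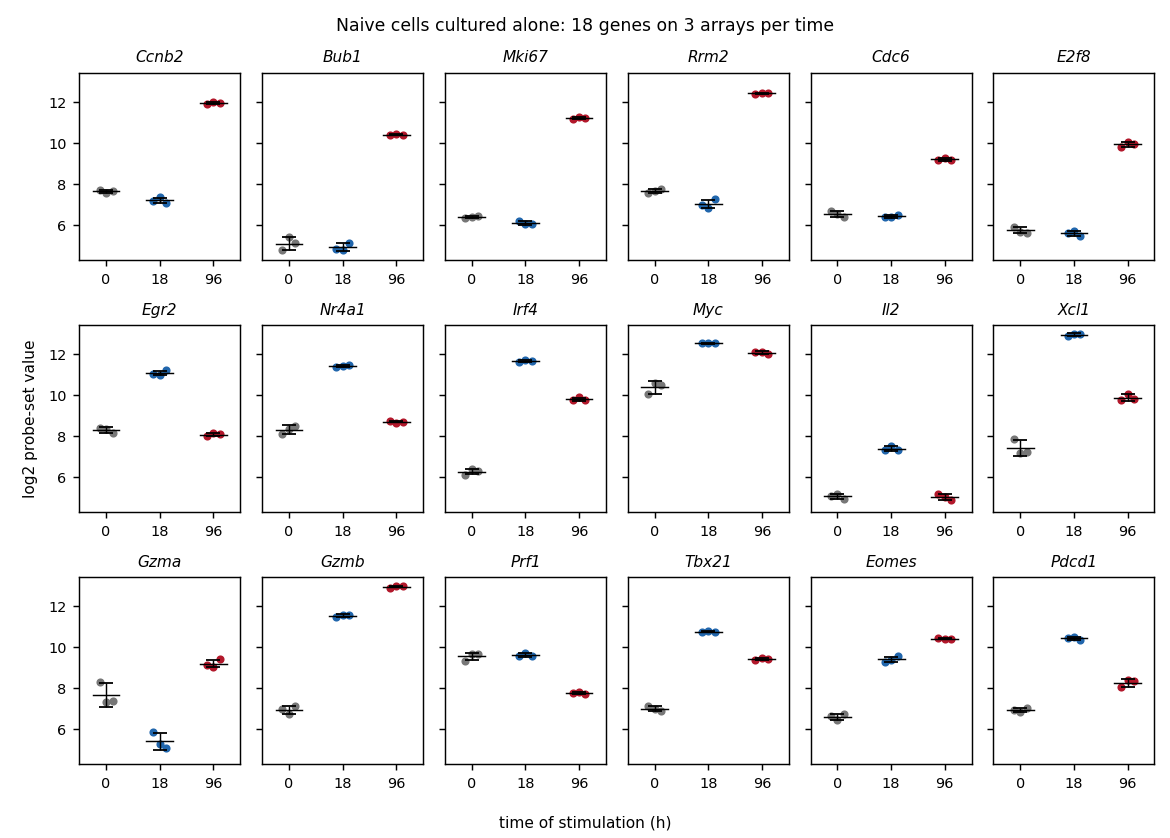
Log2 probe-set value (vertical axis) of 18 genes in TN cells cultured alone at 0, 18 and 96 h of stimulation (horizontal axis), with each array as a point and the mean with its SD in black. The 6 genes of division in the top row stand high at 96 h alone, Egr2, Nr4a1, Irf4, Il2, Xcl1, Tbx21 and Pdcd1 are highest at 18 h, and Gzmb and Eomes are higher at each later time.

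The transcription factors that follow the receptor signal most directly were lower at 96 h. Of 31 early genes of this kind, 24 were lower and 2 higher, against 13.2% and 11.4% over all genes, with a median difference of -1.15. The 2 were Jund, higher by 0.37, and Irf8, by 0.23, neither called after centring each array. Egr2, a zinc finger factor induced by calcium and MAP kinase signals, measured 7.98, 8.14 and 8.07 at 96 h and 11.04, 10.96 and 11.19 at 18 h (difference -3.00, SE 0.17, adjusted p = 3.3e-14). Unstimulated cells averaged 8.29, so the 96 h values lay beside the starting level. Nr4a1, the receptor-induced orphan nuclear receptor also called Nur77, measured 8.70, 8.65 and 8.68 at 96 h and 11.35, 11.42 and 11.47 at 18 h (difference -2.74, SE 0.14, adjusted p = 2e-15). Its relatives Nr4a2 and Nr4a3 fell by 2.70 and 2.02. Irf4, which translates the strength of the receptor signal into growth and effector genes, measured 9.72, 9.87 and 9.74 at 96 h and 11.58, 11.72 and 11.64 at 18 h (difference -1.87, SE 0.12, adjusted p = 5.6e-13). It did not return to its mean of 6.26 in unstimulated cells. Feedback inhibitors of signalling fell too: Spry1 by 3.23, Rgs16, which shortens G protein signals, by 3.25, and the ERK phosphatase Dusp6 by 2.08. Tagap fell by 2.64, Ubash3b, a phosphatase that dampens receptor signals, by 2.21, and Npas4, best known from neurons, by 2.92. Handling stress genes, a list that shares Nr4a1, Egr1, Jun and others with the early genes, were lower in 10 of 13 and higher in 0 (median -0.95), with Egr1 down by 1.71 and Atf3 by 1.5; whether the handling of the cells had a part in this was not tested.

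The probe set that carries the symbol Mir155 was chosen after its values were seen. It averaged 7.04 ± 0.16 at 96 h and 9.37 ± 0.04 at 18 h (SD, n = 3 each, difference -2.32, limma adjusted p = 7.2e-12). Its mature 5′ product, in RefSeq at chr16:84714143-84714165 on the plus strand, is printed because miR-155 is a well known product of activated T cells; capitals mark the seed, bases 2 to 8. The array reads the whole transcript, so the value says nothing of the mature miRNA.
miR-155-5p: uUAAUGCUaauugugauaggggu

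Of 23 surface activation markers and costimulatory receptors 7 were higher at 96 h and 10 lower, against 11.4% and 13.2% over all genes. Cd69, an early marker that keeps cells in the lymph node, measured 10.37, 10.59 and 10.43 at 96 h and 11.77, 11.89 and 12.03 at 18 h (difference -1.43, SE 0.14, adjusted p = 6.3e-09). The costimulatory receptors Cd28, Tnfrsf9 (4-1BB) and Cd27 fell by 1.22, 0.97 and 0.66. Il2ra, the high-affinity chain of the IL-2 receptor, stayed near the top of the scale at 12.59, 12.64 and 12.58 at 96 h and 12.49, 12.54 and 12.57 at 18 h (difference 0.07, SE 0.08, adjusted p = 0.65). Cd44 measured 7.55 at 96 h and 8.05 at 18 h (difference -0.50, adjusted p = 0.13). Cd80, a ligand of CD28 better known on antigen-presenting cells, measured 8.63, 8.90 and 8.86 at 96 h and 5.87, 5.53 and 5.50 at 18 h (difference 3.16, SE 0.13, adjusted p = 1.1e-17). Its 18 h mean was near background, and its other probe set differed by 1.65. Genes of CD8 T cell identity and the T cell receptor complex were split, with 2 of 13 higher and 6 lower. Cd5, which dampens receptor signals, fell by 2.03 and Zap70 by 0.90, while Thy1 and Cd3g rose by 0.50 and 0.38.

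Chemokines were mostly lower at 96 h, with 6 of 10 lower and 1 higher (median -0.98), against 13.2% and 11.4% over all genes. Xcl1, which attracts the dendritic cells that carry its receptor, measured 9.75, 10.05 and 9.78 at 96 h and 12.88, 12.95 and 12.99 at 18 h (difference -3.08, SE 0.26, adjusted p = 2e-10). Ccl4, Cxcl10 and Ccl3 fell by 2.45, 2.21 and 2.07, and the exception was Cxcl9, which rose by 0.87. The arrays of the 2 times did not overlap for any of these 5 genes, which was also so for 42.2% of all genes. Among 20 cytokines 5 were higher and 4 lower, against 11.4% and 13.2% over all genes. Il2, the growth factor that activated T cells make early, measured 5.17, 5.0 and 4.88 at 96 h and 7.30, 7.51 and 7.33 at 18 h (difference -2.36, SE 0.17, adjusted p = 6.9e-12), and its 96 h values were near background, as were those of unstimulated cells. Tnf fell by 0.55. Ifng, the main effector cytokine, measured 10.08, 10.23 and 10.23 at 96 h and 10.39, 10.74 and 10.51 at 18 h, both far above its mean of 6.40 in unstimulated cells (difference -0.36, SE 0.45, adjusted p = 0.7). Its adjusted p was 0.0142 when only the 6 arrays were fitted and 0.00144 without the 0 h arrays. Osm, Il24, Il10 and Lif, other secreted cytokines, rose by 1.53, 1.22, 1.19 and 1.11, with Il10 near background at 18 h.

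The cytotoxic genes did not move together. Of 22 granzyme and granule genes 8 were higher at 96 h and 3 lower (median 0.21), against 11.4% and 13.2% over all genes. Gzmb, the granzyme that cleaves caspases in target cells, measured 12.90, 12.97 and 12.97 at 96 h and 11.45, 11.58 and 11.56 at 18 h (difference 1.42, SE 0.08, adjusted p = 3.9e-14), over a mean of 6.93 before stimulation. Gzma measured 9.14, 9.05 and 9.39 at 96 h and 5.84, 5.29 and 5.05 at 18 h (difference 3.80, SE 0.21, adjusted p = 1.2e-14), with the 18 h mean near background. Unstimulated cells averaged 7.66, so Gzma was lowest in the 18 h arrays. Prf1, perforin, which opens the way for granzymes into the target cell, went the other way, at 7.75, 7.78 and 7.69 at 96 h and 9.56, 9.72 and 9.57 at 18 h (difference -1.88, SE 0.14, adjusted p = 3.1e-11). Gzmc rose by 1.41, Tnfsf10 (TRAIL) by 1.83, and Rab27a and Unc13d, which bring granules to the membrane, by 0.75 and 0.73. Srgn, the proteoglycan core of the granule, fell by 0.61. Gzma is also made by NK cells, and granzyme genes are similar copies of each other, so single members are uncertain. Of the serpins that inhibit granzymes, Serpinb9 fell by 0.57 and Serpinb6b by 1.53, and Serpinb6a and Serpinb9b differed by 0.19 and -0.01 without a call.

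Effector transcription factors also split. The T-box factors Tbx21 and Eomes went in opposite directions. Tbx21 (T-bet) measured 9.35, 9.48 and 9.43 at 96 h and 10.72, 10.77 and 10.72 at 18 h (difference -1.32, SE 0.14, adjusted p = 3.4e-08). Eomes measured 10.42, 10.41 and 10.37 at 96 h and 9.29, 9.37 and 9.54 at 18 h (difference 1.00, SE 0.09, adjusted p = 2.7e-10). The repressor Bcl6 fell by 1.28 and Zeb2 by 0.95, Ikzf2 (Helios), Zbtb32 and Ahr rose by 1.43, 1.19 and 0.87, while Prdm1 (Blimp-1) measured 6.32 at 96 h and 6.28 at 18 h (adjusted p = 0.93). In all, 7 of 18 were higher and 5 lower, against 11.4% and 13.2% over all genes. Of 15 factors of naive and stem-like T cells 10 were lower and 0 higher, with a median of -0.47. Bach2, which restrains effector differentiation, measured 9.21, 9.12 and 9.15 at 96 h and 10.88, 10.86 and 10.83 at 18 h (difference -1.70, SE 0.12, adjusted p = 3.3e-12). Lef1 fell by 0.79, Klf2, which maintains the homing receptors of naive cells, by 0.72, and Klf3 by 1.08. Il7r, the receptor for the survival factor IL-7, measured 10.71, 10.56 and 10.61 at 96 h and 11.88, 11.96 and 12.00 at 18 h (difference -1.32, SE 0.16, adjusted p = 1.7e-07). Il6ra, Il6st and S1pr1 fell by 1.47, 1.11 and 0.64, and Ccr7 differed by -0.28 (adjusted p = 0.10), with 8 of 16 genes of naive homing and survival lower and 2 higher.

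Inhibitory receptors were higher and lower in equal number, 6 each of 16, or 2 and 6 when genes of low value were left out. Pdcd1 (PD-1) measured 8.05, 8.41 and 8.32 at 96 h and 10.42, 10.48 and 10.37 at 18 h (difference -2.16, SE 0.11, adjusted p = 4.6e-15), Lag3 fell by 1.14 and Cd160 by 1.00. Ctla4, which competes with CD28 for its ligands, measured 9.82, 9.98 and 10.02 at 96 h and 8.85, 8.73 and 8.63 at 18 h (difference 1.20, SE 0.14, adjusted p = 5.8e-08). Entpd1 (CD39) and Havcr2 (TIM-3) rose by 2.10 and 1.41, with 18 h values near background. Crtam, an adhesion molecule of activated CD8+ T cells outside these lists, fell by 2.96. Of 17 genes of IL-2 family receptors and the STAT5 response, 8 were higher and 4 lower, or 2 lower without replicate 1 of 96 h, against 11.4% higher and 13.2% lower over all genes. Socs2, a STAT5 target that restrains cytokine signals, measured 11.49, 11.59 and 11.51 at 96 h and 8.95, 8.83 and 9.04 at 18 h (difference 2.59, SE 0.10, adjusted p = 1.3e-17), and its other probe set differed by 1.42. Il2rb rose by 0.65. Of 19 chemokine receptors and integrins of activated cells 7 were higher and 1 lower, or 4 and 1 when genes of low value were left out. Ccr4 measured 9.81, 10.17 and 10.10 at 96 h and 7.21, 7.74 and 7.29 at 18 h (difference 2.61, SE 0.22, adjusted p = 2.1e-10), and Cxcr3, a receptor for interferon-induced chemokines, rose by 1.79. Il18rap, a chain of the IL-18 receptor, rose by 1.42 and Jak2, a kinase of cytokine receptors, fell by 0.94, with 2 of 10 genes of the interferon gamma, IL-12 and IL-18 receptors higher and 2 lower.

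Genes of ribosome assembly were lower at 96 h by small steps, 27 of 35 lower and 0 higher with a median of -0.48, against 13.2% lower over all genes. Utp20, a part of the complex that processes ribosomal RNA, measured 9.11, 9.27 and 9.24 at 96 h and 10.09, 10.16 and 10.25 at 18 h (difference -0.96, SE 0.16, adjusted p = 4e-05). Polr1b, a subunit of RNA polymerase I, measured 10.26, 10.36 and 10.21 at 96 h and 11.08, 11.10 and 11.08 at 18 h (difference -0.81, SE 0.12, adjusted p = 6.3e-06). At 18 h 31 of the 35 genes were higher than in unstimulated cells and 0 lower, against 17.3% and 16.7% over all genes. At 96 h 19 were higher than in unstimulated cells and 2 lower, against 36.6% called in either direction over all genes. Myc, a transcription factor known to drive such genes, measured 12.09, 12.09 and 11.98 at 96 h and 12.51, 12.54 and 12.52 at 18 h (difference -0.47, SE 0.11, adjusted p = 0.0011), over 10.37 in unstimulated cells. Ribosomal proteins were lower in 8 of 32 (15 with array weights) and higher in 0, tRNA synthetases and translation factors in 8 of 26 and 0, and mitochondrial import and biogenesis genes in 9 of 24 and 0. The count for synthetases was 5 without replicate 1 of 96 h or replicate 3 of 18 h. Hspd1, a mitochondrial chaperone, fell by 0.54. Heat shock genes were lower in 4 of 18 and higher in 0. Of the 18, 2 were lower without replicate 1 of 96 h or replicate 3 of 18 h or with TN arrays only, 7 after centring or with only the 6 arrays, and 10 with array weights.

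Metabolic genes moved less than those of division, and their counts stand beside 11.4% higher and 13.2% lower over all genes. Of 19 genes of fatty acid oxidation 11 were higher and 1 lower (median 0.39). Cpt1a, which carries fatty acids into mitochondria, measured 9.87, 10.05 and 9.98 at 96 h and 8.72, 8.84 and 8.89 at 18 h (difference 1.15, SE 0.18, adjusted p = 1.2e-05), and Acaa2 and Acadl rose by 1.24 and 1.12. At 18 h 14 of these 19 genes were lower and 1 higher than in unstimulated cells, against 16.7% lower and 17.3% higher over all genes. Genes of fatty acid synthesis and desaturation were higher in 5 of 16 and lower in 2. The desaturases Fads2 and Scd2 rose by 2.55 and 2.12, and Acss2, which makes acetyl-CoA from acetate, fell by 0.87. Respiratory chain genes were higher in 13 of 34 and lower in 0, with Sdha and Cox5a up by 0.44 and 0.66. That count was 7 without replicate 2 of 96 h, 8 without replicate 3 of 96 h or replicate 1 of 18 h, 7 higher with 1 lower after centring each array, and 21 with 1 lower under array weights. Glycolysis genes were higher in 7 of 19 and lower in 2, or 6 and 4 after centring and 8 and 4 with array weights, with only the 6 arrays or without the 0 h arrays, and 0 were lower without replicate 1 of 96 h or replicate 1 of 18 h. Tpi1, the triosephosphate isomerase, rose by 0.96, and Ldha and Slc2a1, the glucose transporter GLUT1, were measured at 12.72 and 10.55 at 96 h and 12.59 and 10.82 at 18 h with no call. The TCA cycle list had 5 of 20 higher, or 9 with array weights, and 2 lower, or 1 without any single array of the 6. Cholesterol synthesis genes were split, 5 higher and 6 lower of 25 (4 and 8 after centring, 8 and 6 when genes of low value were left out), as were hypoxia genes, 4 and 6 of 22, of which Ndrg1 fell by 1.39 and Bnip3, a mitophagy receptor, rose by 1.43 on the brighter of its probe sets and differed by 0.76 on the other. Nucleotide synthesis genes, Tyms among them, were higher in 6 of 23 and lower in 0, or 5 and 3 after centring.

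Stress and death genes gave no common direction, again beside 11.4% higher and 13.2% lower over all genes. The unfolded protein response had 5 of 23 higher and 5 lower, with Xbp1 up by 0.99 and Dnajb9 down by 1.47, and the ATF4 list 6 of 24 higher and 7 lower. Type I interferon genes were lower in 9 of 24 and higher in 5, or in 3 after centring, after quantile normalization, or without replicate 2 of 96 h, replicate 2 of 18 h or replicate 3 of 18 h, with Irf7 down by 1.35 and Mx1 up by 1.23. The proteasome list had 3 of 32 higher, which were the immunoproteasome subunits Psmb8, Psmb9 and Psmb10, up by 0.53, 0.68 and 0.81, and 2 lower, both below the shares over all genes. The proteasome counts were 8 and 8 with array weights, 6 and 7 with only the 6 arrays and 5 and 7 without the 0 h arrays. The 7 other genes of a list of 10 for antigen presentation by MHC class I were not called, B2m at 13.45 at 96 h and 13.46 at 18 h. Of 17 p53 targets 6 were higher, Phlda3 by 1.36, and 3 lower. Of 20 BCL2 family and death receptor genes 3 were higher and 4 lower. Bcl2 measured 11.41, 11.43 and 11.43 at 96 h and 10.79, 10.96 and 10.93 at 18 h (difference 0.53, SE 0.14, adjusted p = 0.0047), while Mcl1 and Cflar, further inhibitors of cell death, and the killer Bcl2l11 (Bim) fell by 0.72, 1.02 and 0.88.

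**Figure D3:**
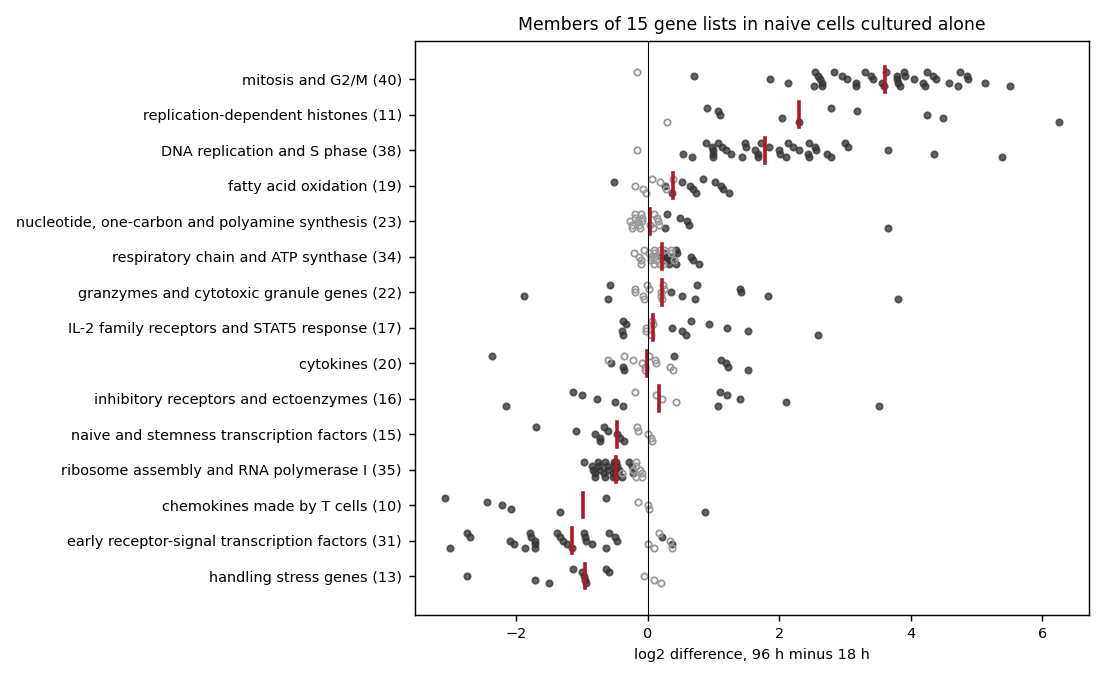
Log2 difference between 96 h and 18 h (horizontal axis) of every measured member of 15 gene lists, filled where called and open where not, with the median of the list as a red line and the number of members in parentheses. Mitosis, histone and replication genes lie right of 0 except for 1 mitosis gene at -0.16 and 1 replication gene at -0.17, neither called, and early transcription factors, chemokines and ribosome assembly genes lie mostly left of it.

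Among the 20 largest rises were 5 genes outside the division lists. Ifitm3, an interferon-induced membrane protein that blocks virus entry, measured 11.62, 11.72 and 11.69 at 96 h and 6.89, 7.05 and 6.95 at 18 h (difference 4.72, SE 0.18, adjusted p = 5.8e-18). Kcnma1, a potassium channel gene, measured 11.56 at 96 h and 6.46 at 18 h (difference 5.11), and 12.66 in unstimulated cells on the same probe set, while its other probe set gave 5.6 at 96 h and 5.54 at 18 h. The other probe set was near background at both times, so the change of this gene rests on a single probe set. The other 3 were the cohesin acetyltransferase Esco2, the condensin subunit Ncapg and the kinetochore protein Knl1, which are genes of division absent from the lists and were near background at 18 h. The largest falls included Akr1c18, a steroid-metabolising enzyme, at 5.12, 4.86 and 5.12 at 96 h and 8.21, 8.31 and 8.52 at 18 h (difference -3.31, SE 0.15, adjusted p = 3.2e-16). Its 96 h values were near background. Slc15a2, a peptide transporter near background at 96 h, fell by 2.48, Utf1 by 2.36, Ifi208 by 2.29, Ncs1 by 2.18 and Pou2af1, a coactivator known from B cells, by 2.17.

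Some markers of cells other than CD8+ T cells were also higher at 96 h. Of 14 genes of B cells and MHC class II 6 were higher and 0 lower, against 11.4% and 13.2% over all genes, and 5 were near background at both times, among them the B cell genes Cd79a and Ms4a1 at 4.77 and 4.80 at 96 h and 4.80 and 4.78 at 18 h. H2-Aa, a chain of an MHC class II molecule, measured 9.35, 9.54 and 9.48 at 96 h and 6.18, 6.08 and 6.26 at 18 h (difference 3.28, SE 0.16, adjusted p = 1.6e-15). Cd74, the chaperone of class II molecules, and Cd79b rose by 2.14 and 1.74, and the mean of the list per array was 7.01 to 7.02 at 96 h and 6.15 to 6.21 at 18 h. Of 22 macrophage, dendritic cell and neutrophil genes 6 were higher and 0 lower, Lgals3 by 3.52, Lyz2, lysozyme, by 2.45 and Fcer1g by 1.77, with list means of 6.73 to 6.76 at 96 h and 6.20 to 6.34 at 18 h. Of 11 mast cell and basophil genes 6 were higher and 0 lower, Cpa3 by 3.05 and Mcpt8 by 1.76 (list means 6.42 to 6.52 at 96 h and 5.73 to 5.83 at 18 h), while Fcer1a, Mcpt4 and Ms4a2 were near background at both times and Cpa3 at 18 h. NK cell genes were lower in 1 of 9 and higher in 5, among them Klrb1b by 1.52 and Ncr1 by 1.05, both near background at 18 h. With genes of low value left out, 3 myeloid, 3 mast cell and 1 NK cell gene were higher. Of 9 CD4+ and regulatory T cell genes 2 were higher, Lrrc32 by 1.82 and Ikzf2 by 1.43, and 1 was lower, Tnfsf8 by 0.61, with a median of 0.05 and Cd4 not called (adjusted p = 0.93). Tnfsf8 was not called without replicate 1 or 2 of 96 h or replicate 2 of 18 h. Of 8 erythroid and platelet genes 2 were higher, Pf4 by 0.86 and Ppbp by 0.81, and 0 lower, or 0 and 0 when genes of low value were left out. The part of other cells in the results above was not tested.

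**Figure D4:**
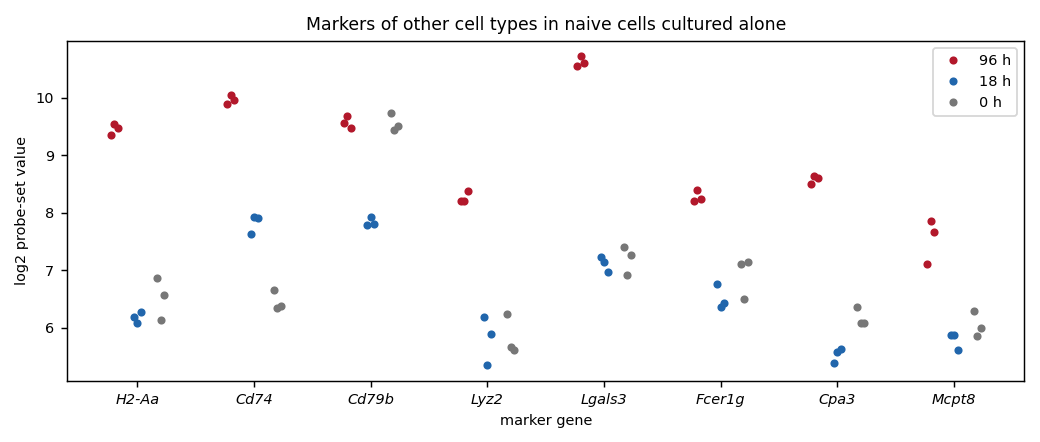
Log2 probe-set value of 8 markers of B cells, myeloid cells and mast cells or basophils on each array of TN cells alone, at 96 h (red), 18 h (blue) and 0 h (grey). The 8 are members called higher at 96 h, so their rise over 18 h was fixed by the choice. Members not called, such as Cd79a and Ms4a1, are not drawn. At 0 h only Cd79b stands as high as at 96 h.

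The change between 18 h and 96 h was then set against the same change in the other cultures, with the test of the difference itself. Both tests use the same TN alone arrays. Eif2s3y averaged 7.64 at 96 h and 8.36 at 18 h in TN mix, and 9.27 at 96 h and 9.21 at 18 h in TMem cells alone, so the Y-linked signal did not change there as in TN cells alone; its part in these differences was not tested. Compared with TN cells stimulated together with TMem cells, 2394 genes changed differently (12.5%), 1568 of them more positively in the mix (8.21%) and 826 more negatively (4.32%), or 859 and 1375 after centring each array and 1400 and 1262 after quantile normalization. The mitosis list had a median change of 3.70 in TN mix and 3.61 in TN alone, and 7 of 40 genes changed more in the mix and 0 less. Cholesterol synthesis genes had a median change of 0.76 in TN mix and -0.01 in TN alone, with 18 of 25 called more positive and 0 less, and glycolysis genes 0.90 and 0.13, with 13 of 19 more positive and 1 less. Of 22 hypoxia genes 15 were more positive in the mix and 0 less. Other lists went the other way, with 7 of 38 replication genes and 9 of 34 respiratory chain genes more negative and 0 more positive. Counts of list members for differences between cultures were made in the main fit alone. How centring or quantile normalization would move them was not tested. Slc2a1 rose by 1.26 in TN mix, and the difference from TN alone was 1.52 (adjusted p = 7.9e-07). Ifng changed by -3.81 in TN mix and -0.36 in TN alone (difference -3.45, adjusted p = 0.00033). The fall of Xcl1 was deeper in the mix, at -5.0 against -3.08 in TN alone (difference -1.93, adjusted p = 0.00054). Of 35 ribosome assembly genes 13 changed more negatively in the mix and 0 more positively, and the MHC class II genes H2-Aa and Cd74 differed by 0.66 and -0.42 between 96 h and 18 h there.

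Against TMem cells alone, 3052 genes changed differently (16%), 1844 more positively in TMem (9.65%) and 1208 more negatively (6.32%). Of 40 mitosis genes 38 changed more negatively in TMem and 1 more positively, and of 38 replication genes 37 and 0. Their median changes were 1.07 and 0.16 in TMem cells, against 3.61 and 1.78 in TN cells. These are changes and not levels, so they do not say in which cells the genes stood higher. Ccnb2 changed by 1.36 in TMem cells and 4.75 in TN cells (difference -3.39, adjusted p = 1.3e-18). Prf1 went the other way, with a change of 0.78 in TMem cells while it fell in TN cells (difference 2.66, adjusted p = 7.3e-11), and Il7r changed by 0.58 in TMem and -1.32 in TN cells (difference 1.91, adjusted p = 2.4e-07). For Tbx21 the changes were -0.78 in TMem and -1.32 in TN cells (difference 0.54, adjusted p = 0.079).

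**Figure D5:**
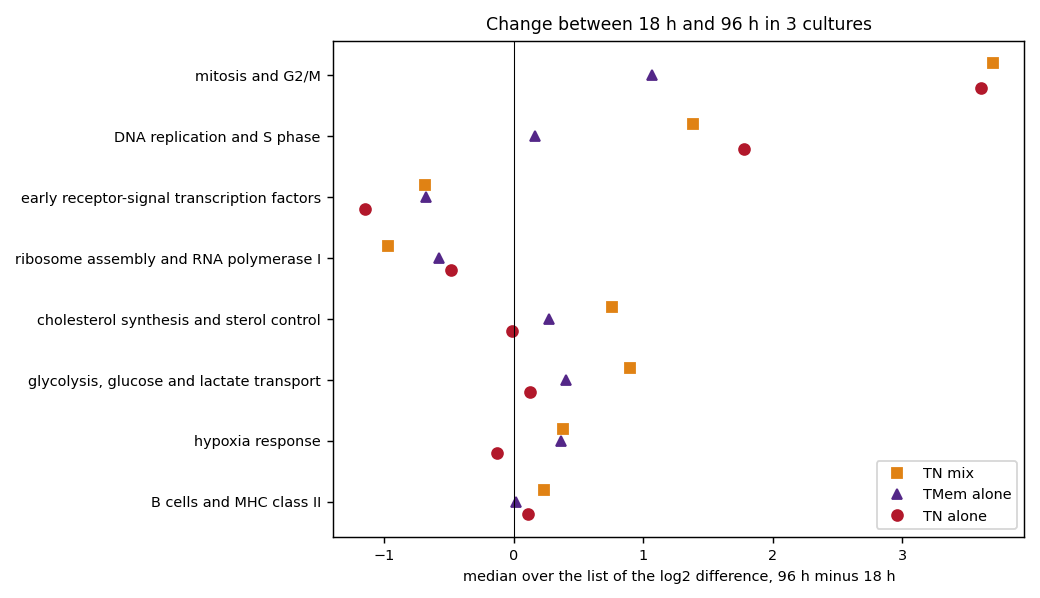
Median over the members of 8 gene lists (vertical axis) of the log2 difference between 96 h and 18 h (horizontal axis) in TN cells with TMem cells (TN mix), TMem cells alone, and TN cells alone. Mitosis genes stand at 3.70, 1.07 and 3.61 in these cultures, and cholesterol and glycolysis genes are furthest right in TN mix.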

How the data were processed

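RNA of sorted CD8+ T cells was extracted with QIAGEN kits, amplified as whole transcriptome and hybridized to Affymetrix arrays, per the labels' protocols. The values the authors deposited are on a log2 scale, 1 per probe set, for which RMA and Partek are named per the submitters' processing notes, with version, order and role not given in the sources used here. They ran from 2.05 to 14.2, with array medians from 6.76 to 6.94, and were used as deposited.

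Of 35556 probe sets 21789 carried a single symbol and entered the fit, 1621 carried several and 12146 had no name here. The probe set of highest mean stood for each of 999 genes with several, which left 19938 genes, 19106 of them autosomal by RefSeq (GRCm38.p6, 21698 probe sets matched by gene number). Of 23 named genes with several probe sets, 6 called ones (E2f3, Eif4e, Kcnma1, Rpl13, Slc38a1 and Top2a) had another of opposite sign or much smaller difference.

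One mean per group was fitted over all 30 arrays with limma 3.58.1 (lmFit, eBayes) (R 4.3.3; 20 degrees of freedom left). P-values are 2-sided, Benjamini-Hochberg adjusted over all 19938 genes, and called under 0.05. The difference between cultures was tested as a difference of changes. Genes were named by a rule: the 20 largest called rises and falls whose groups did not overlap, up to 6 called members per list and direction, all members of lists with under 12 measured genes, 35 followed genes, and the 6 largest called differences between cultures in each direction. Members, the 47 lists (99 of 1039 members unmatched) and rule were chosen with earlier results of these data known. A level is called near background where the mean of the group lies under the averaged lower quartile of its arrays. Differences that start there are uncertain in size. The 3 arrays per group limit the precision. On data simulated with independent noise, the procedure recovered 65.7% of log2 differences of 0.5 and 100% of those of 1. Of its calls there 5.85% were false. In the simulation 67, 67 and 66 of 19938 genes were changed, by 0.5, 1 and 2. That is a far smaller share than the 24.6% called between 96 h and 18 h, so these rates need not hold for the real data. Alternatives were other choices of arrays, a replicate block, array weights, trend and robust estimation, quantile normalization, median centring, a filter on low values, and the mean of all probe sets of a gene. Each array of TN alone, TN mix and TMem alone at 18 h and 96 h was also left out in turn. The remaining arrays of the fit, those of 0 h among them, were not left out singly.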

Additional observations from a re-analysis of the deposited data

Results flagged for a closer look

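The change between 18 h and 96 h differed between cultures by a test of the difference itself (limma), with both comparisons subtracting the same TN alone arrays. Against TN alone, 1568 genes changed more positively and 826 more negatively in TN mix. The largest positive differences there were those of Scd1 (4.13), Aldoc (3.01), Bnip3 (2.98), Ak4 (2.83), Ly6a2 (2.75) and Zdhhc2 (2.54), and the largest negative ones those of Ifng (-3.45), Il3 (-2.64), H2-Aa (-2.62), Cd74 (-2.56), Tnfsf4 (-2.39) and Cd200 (-2.34). In TMem cells alone 1844 genes changed more positively and 1208 more negatively than in TN alone. The granzymes Gzmd (4.10), Gzme (3.68) and Gzmg (2.93), which are near-identical copies and uncertain singly, led with Ly6a2 (3.46), Gpr141 (3.34) and Ifi208 (2.69). The most negative were Il3 (-6.96), H2ac4 (-5.85), Kcnma1 (-4.91), Ccl1 (-4.91), Rrm2 (-4.73) and Bub1 (-4.36).

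Y-linked genes, which lie outside the autosomal genes counted above, stood higher in TN alone at 18 h than at 0 h, Eif2s3y by 3.95, Uty by 2.41 and Kdm5d by 2.25, in cells labelled female. Groups of 3 arrays are too small for a test of single outlying arrays.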

How the results depend on the processing

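The counts of genes higher and lower at 96 h stayed within 1.5 times of 2183 and 2525 under every alternative run except array weights, which called 3871 lower. Without the 0 h arrays, which share in the estimate of the spread, 2573 were higher and 3137 lower. Leaving out 1 array gave 1841 to 2003 higher and 1980 to 2303 lower. Between TN mix and TN alone, 2710 genes were more positive with array weights and 859 after centring, which moved the median over all genes to -0.06 in place of 0.07. The more negative count, 826, was 1414 without the 0 h arrays, 490 with TN arrays only, 2273 with array weights, 1262 after quantile normalization and 1375 after centring. Leaving out 1 array gave 1216 to 1625 more positive and 536 to 978 more negative, the lowest without replicate 1 of TN mix at 96 h. Between TMem alone and TN alone, array weights gave 3422 more positive and 2191 more negative, and leaving out 1 array 1485 to 1728 and 1043 to 1186. The causes were not tested.

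Equal replicate numbers were not taken as pairs. Deviations of equally numbered arrays at 96 h and 18 h correlated at 0.16, -0.06 and 0.05, and those of unequally numbered arrays at -0.24 to 0.23. With 3 arrays per group these values cannot show whether samples were paired. With the replicate number as a block, 2142 genes were higher and 2492 lower at 96 h, 1512 and 772 differed between TN mix and TN alone, and 1801 and 1178 between TMem alone and TN alone. Of 341 named genes called, 302 were called in every alternative, 39 lost the call in at least 1 and 0 turned direction; among the 39 were Aldoc, Btla, Ccl5, Hmgcs1, Ptprc, Rpl13 and Slc38a1. Ccr7, Cd44, Ifng and Slc2a1, not called, were called in some. Signal near background limits 3623 genes that were low at both times.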
